A study of Mus musculus with 4 samples.

Results

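The genes described here encode the H3K27 demethylases *Kdm6a* and *Kdm6b* and the H3K4 methyltransferases *Kmt2a*, *Kmt2b*, *Kmt2c*, *Kmt2d*, *Setd1a* and *Setd1b*. They were taken by symbol from the table of mouse gene expression, in which these 8 genes stand among 24421 gene entries. Each of the 8 had at least 1 TPM (a read count divided by gene length and scaled to a library sum of 1000000) in every library, and none was lost to a filter on low values.

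Methyl groups on lysine 27 of histone H3 are placed by PRC2 and mark silent developmental genes, whereas methyl groups on lysine 4 mark promoters and enhancers that are active or poised. KDM6A and KDM6B remove the first mark, and the KMT2 and SETD1 proteins place the second. In pluripotent cells many developmental promoters carry both marks at once, and each H3K4 methyltransferase works inside a large complex built on a shared core of WDR5, RBBP5, ASH2L and DPY30.

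Polyadenylated RNA was sequenced from 4 cultures of the wild-type mouse ESC line R1, with 1 library per condition. ESCs were compared with epiblast-like cells (EpiLCs) taken 72 h post induction, and ESCs given 10 µM EED226, a PRC2 inhibitor that binds EED, for 48 h were compared with ESCs given DMSO for 48 h. Both treated cultures were in serum-containing ESC medium with LIF. The ESC library is labelled with this same medium, although by the methods the cells were seeded in it with PD0325901 and CHIR99021 added a day before collection, and EpiLCs came from such cells after 24 h without LIF and culture with knockout serum replacement, FGF2 and a JAK inhibitor. The line was maintained on embryonic fibroblast feeders, which were removed by plating before induction, and R1 is a single line.

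The libraries held from 34440050 reads on genes in EpiLCs to 47622558 in ESCs. All 8 naive pluripotency markers examined lay 2-fold or more below their ESC level in EpiLCs and 3 of 4 formative markers were 2-fold or more above it, while *Pou5f1* and *Sox2*, which are shared by both states, had EpiLC over ESC ratios of 0.499 and 0.434, both past 2-fold downwards. Summed over 7 fibroblast genes, feeder markers were at 32.7 TPM in ESCs, 9.49 TPM in EpiLCs, 55.7 TPM with DMSO and 57.7 TPM with EED226. The lower sum in EpiLCs came mainly from *Col1a1* (19.0 TPM in ESCs and 1.65 TPM in EpiLCs) and *Col1a2* (8.29 and 1.36 TPM). *Dcn* went the other way, from 6 reads in ESCs to 102 in EpiLCs (26.2-fold higher, 11.6 to 73.1), and *Thy1* had a ratio of 0.890 (0.670 to 1.18). The part of feeder RNA in the results was not tested.

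The 8 genes are long. The lengths used for TPM ran from 5265 bases for *Kdm6a* to 19827 bases for *Kmt2d*, while the median of the 11202 genes with at least 1 TPM in all libraries was 2839 bases and 84.8% of those genes were shorter than *Kdm6a*. The ratios between libraries moved with length in both comparisons. Genes of under 1000 bases had a median log2 ratio of -0.13 in EpiLCs over ESCs, against which those of 8000 to 16000 bases had one of 1.18, with -0.034 and 0.28 in EED226 over DMSO. Genes of 16000 bases or more, *Kmt2a*, *Kmt2c* and *Kmt2d* among them, were few. Their medians were 0.94 over 21 genes in EpiLCs over ESCs and 0.32 over 18 genes in EED226 over DMSO. Each gene was therefore set beside the 500 genes nearest to it in length, called genes of like length below, with at least 1 TPM in either library. Whether the length trend arises in the cells or in the preparation of the libraries cannot be told apart here.

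Each gene was covered by 2099 to 12817 reads per library, which gave 95% counting intervals no wider than 4.23% below to 4.37% above a level. These intervals cover counting error only. With 1 library per condition there is no replicate check, the spread between cultures is unknown and no test was possible. In bulk RNA, fewer cells expressing a gene and less RNA per cell cannot be told apart.

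The methyltransferase genes *Kmt2a*, *Kmt2c* and *Kmt2d* are shown with the 250 bases before their RefSeq start. They were picked by outcome, as the methyltransferase genes at least 2-fold higher in EpiLCs than in ESCs. Some CpG-rich promoters are sites that KMT2A, KMT2B or PRC2 occupy, and occupancy of these windows was not measured here. RefSeq windows of GRCm38.p6 were matched for 5 of the 8 genes. The search was for CG, which reads the same on both strands, and each CG is in capitals. The *Kmt2a* window, chr9:44881290-44881539 on the minus strand, held 29 CG and 76.8% G or C. The *Kmt2c* window, chr5:25498784-25499033 on the minus strand, held 48 CG and 91.6% G or C. The *Kmt2d* window, chr15:98871206-98871455 on the minus strand, held 26 CG and 67.6% G or C.
Kmt2a: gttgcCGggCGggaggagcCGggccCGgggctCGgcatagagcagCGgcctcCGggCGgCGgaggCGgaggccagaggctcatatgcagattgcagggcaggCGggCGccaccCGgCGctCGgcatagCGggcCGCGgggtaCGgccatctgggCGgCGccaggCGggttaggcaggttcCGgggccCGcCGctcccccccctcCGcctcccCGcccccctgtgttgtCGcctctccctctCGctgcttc
Kmt2c: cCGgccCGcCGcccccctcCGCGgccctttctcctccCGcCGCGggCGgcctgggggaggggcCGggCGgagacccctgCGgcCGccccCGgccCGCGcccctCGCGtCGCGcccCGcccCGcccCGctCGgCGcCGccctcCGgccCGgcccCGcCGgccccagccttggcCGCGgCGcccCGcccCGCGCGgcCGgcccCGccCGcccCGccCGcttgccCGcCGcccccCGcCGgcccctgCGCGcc
Kmt2d: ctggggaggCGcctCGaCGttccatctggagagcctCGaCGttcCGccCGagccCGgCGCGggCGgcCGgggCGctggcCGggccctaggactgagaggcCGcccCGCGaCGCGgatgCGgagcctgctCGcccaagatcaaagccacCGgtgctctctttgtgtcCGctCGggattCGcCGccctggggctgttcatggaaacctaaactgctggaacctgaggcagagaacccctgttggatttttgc

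At least 1 CG was present in 92.1% of the 32851 windows of this length in the RefSeq table, and their median was 6. At least as many CG as in *Kmt2c* were found in 0.186% of all windows, at least as many as in *Kmt2a* in 6.78% and at least as many as in *Kmt2d* in 9.59%. *Kdm6a* with 15 CG (27.3% of windows) and *Setd1a* with 25 CG (10.7%) were also matched. *Kdm6b*, *Kmt2b* and *Setd1b* were not. The *Setd1a* window, chr7:127777139-127777388, lies inside the gene in the annotation used for positions, where *Setd1a* starts at 127776670. The counts describe the letters only.

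*Kdm6b* was the demethylase gene that set EpiLCs apart. KDM6B, also called JMJD3, is induced in many cell types by signals and during differentiation. Its level was 22.5 TPM in ESCs, 63.3 TPM in EpiLCs, 19.4 TPM with DMSO and 17.9 TPM with EED226. The EpiLC library was high, while the 3 ESC cultures lay between 17.9 and 22.5 TPM. The EpiLC over ESC ratio was 2.81 (95% counting interval 2.70 to 2.93), a log2 ratio of 1.49 beside a like-length median of 0.84, and 361 of the 500 genes of like length lay below it. The upper quartile of those genes was 1.62. Against the DMSO library, a reference chosen after the data were seen, *Kdm6b* was 3.26-fold higher in EpiLCs (3.10 to 3.42) and 459 of 500 lay below. Its DMSO level was low for its length, since 72 of 500 lay below it in DMSO over ESC. *Kdm6b* lies on chromosome 11, 69398508 to 69413675, of GRCm38, and 4.11% of its exonic bases overlap *Kdm6bos* on the opposite strand.

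*Kdm6a* varied less. KDM6A, also called UTX, is encoded on the X chromosome (18162575 to 18279936) and is a subunit of the KMT2C and KMT2D complexes. Its level was 32.9 TPM in ESCs, 55.1 TPM in EpiLCs, 43.6 TPM with DMSO and 48.2 TPM with EED226. EpiLCs were highest and ESCs lowest. The EpiLC over ESC ratio was 1.67 (1.604 to 1.748), and its log2 ratio of 0.74 was near the like-length median of 0.64, with 259 of 500 genes below it. Beside genes of like length and GC content the difference was -0.0082.

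The order of the demethylase genes differed in the EpiLC library. *Kdm6a* was the more abundant in ESCs, DMSO and EED226, and *Kdm6b* made up 40.6%, 30.8% and 27.04% of their summed TPM in these libraries. In EpiLCs its share was 53.5%. The ratio of *Kdm6a* to *Kdm6b* was 0.596-fold as high in EpiLCs as in ESCs (0.562 to 0.632). Their sum was 55.4 TPM in ESCs, 118 TPM in EpiLCs, 63.0 TPM with DMSO and 66.0 TPM with EED226.

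**Figure D1:**
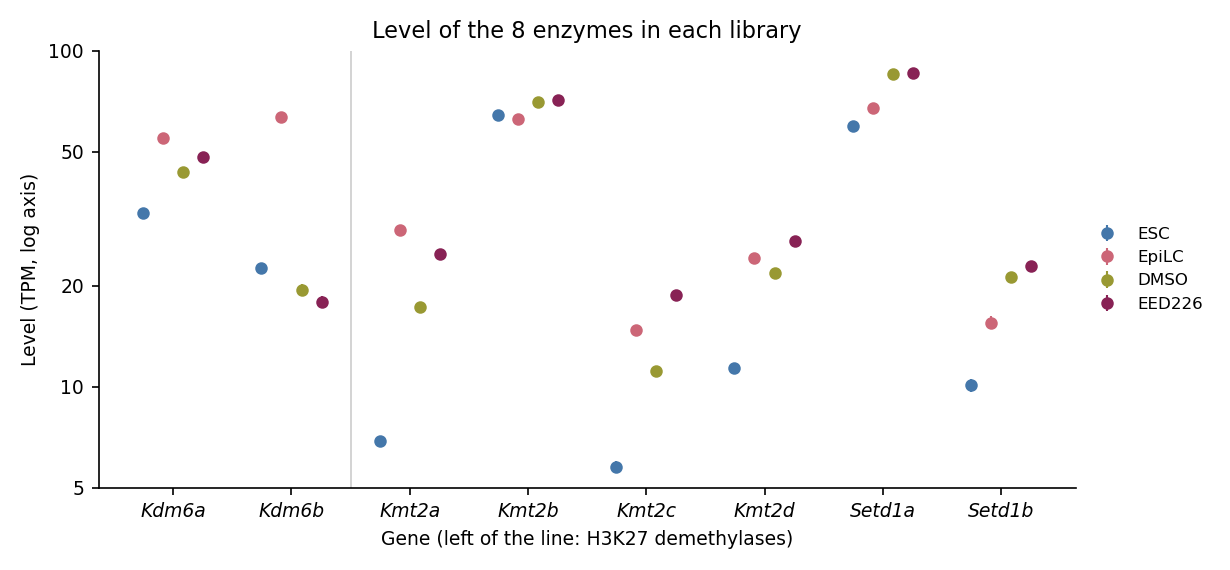
Level of each of the 8 genes (TPM, log axis) in the ESC, EpiLC, DMSO and EED226 libraries, 1 point per library with its 95% counting interval, which is mostly smaller than the point. *Kmt2a* runs from 6.89 TPM in ESCs to 29.2 TPM in EpiLCs, *Kmt2b* stays between 62.5 and 71.2 TPM, and *Kdm6b* is high in EpiLCs only among these libraries.

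Among the methyltransferases, *Kmt2a* had the widest range. KMT2A, also called MLL1, maintains expression of developmental genes such as the Hox genes and is held at chromatin through menin and a CXXC domain that binds unmethylated CpG. Its level was 6.89 TPM in ESCs, 29.2 TPM in EpiLCs, 17.3 TPM with DMSO and 24.8 TPM with EED226. ESCs were lowest and EpiLCs highest, a 4.24-fold range over the 4 libraries. The EpiLC over ESC ratio of 4.24 (4.06 to 4.44) was a log2 ratio of 2.07 beside a like-length median of 1.20, and 388 of 500 genes lay below it. It was the only one of the 8 above the upper quartile (1.95) of its genes of like length in that comparison. Against the DMSO library, a reference chosen after the data were seen, its log2 ratio was 0.75. That lay under the upper quartile of 0.97, with 311 of 500 genes below it. *Kmt2a* lies on chromosome 9, 44803355 to 44881296, and 2.27% of its exonic bases overlap *AC061963.1* on the opposite strand.

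Its paralog *Kmt2b* was nearly flat. KMT2B, or MLL2, is known in mouse ESCs as the methyltransferase of bivalent promoters. Its level was 64.2 TPM in ESCs, 62.5 TPM in EpiLCs, 70.3 TPM with DMSO and 71.2 TPM with EED226. This 1.14-fold range was the narrowest of the 8. The EpiLC over ESC ratio was 0.973 (0.946 to 1.001), and its log2 ratio of -0.04 lay below the like-length lower quartile of 0.39, with 67 of 500 genes below it. The difference from genes of like length was -1.10, and it shrank to -0.68 beside genes of like length and GC content, of which 124 of 500 lay below. *Kmt2b* is on chromosome 7, 30568858 to 30588726.

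The balance of these paralogs therefore differed between libraries. *Kmt2a* contributed 9.69% of their summed TPM in ESCs, 31.9% in EpiLCs, 19.7% with DMSO and 25.8% with EED226. *Kmt2b* was the more abundant in each. Relative to *Kmt2b*, *Kmt2a* was 4.31-fold higher in EpiLCs than in ESCs (4.09 to 4.54), a difference of 2.11 on the log2 scale that was 1.97 after each gene was centred on its genes of like length.

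*Kmt2c* and *Kmt2d* encode MLL3 and MLL4, which place monomethylation on H3K4 at enhancers. *Kmt2c* was at 5.75 TPM in ESCs, 14.8 TPM in EpiLCs, 11.1 TPM with DMSO and 18.7 TPM with EED226. *Kmt2d* was at 11.4 TPM in ESCs, 24.2 TPM in EpiLCs, 21.8 TPM with DMSO and 27.2 TPM with EED226. Both genes were lowest in ESCs and highest with EED226. In EpiLCs over ESCs their ratios were 2.57 (2.44 to 2.71) and 2.12 (2.05 to 2.197). These sizes were common among genes of this length. The log2 ratio of *Kmt2c* was 1.35 with 267 of 500 genes of like length below it, and that of *Kmt2d* was 1.08, which is 0.12 under the like-length median, so that its difference turned to -0.12 on that scale. That sign was not stable, since the difference was 0.25 beside genes of like length and GC content, with 281 of 500 below, and 0.18 beside the 8 genes within 10% of its length. Few genes are this long, and the 500 used for *Kmt2a*, *Kmt2c* and *Kmt2d* were the same and ran from 8311 to 30001 bases. Most of the 500 were thus shorter than these genes. *Kmt2c* lies on chromosome 5, 25271798 to 25498783, where 1.35% of its exonic bases overlap *Gm42585* on the opposite strand, and *Kmt2d* on chromosome 15, 98831669 to 98871204.

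*Setd1a* and *Setd1b* encode the catalytic subunits of the SET1 complexes, which place much of the trimethylation of H3K4 at active promoters. *Setd1a* was at 59.8 TPM in ESCs, 67.4 TPM in EpiLCs, 85.2 TPM with DMSO and 85.7 TPM with EED226. *Setd1b* was at 10.1 TPM in ESCs, 15.5 TPM in EpiLCs, 21.3 TPM with DMSO and 22.9 TPM with EED226. Unlike *Kmt2a*, both had higher levels in the 2 treated cultures than in EpiLCs. In EpiLCs over ESCs the *Setd1a* ratio was 1.13 (1.09 to 1.16), which turned to a log2 difference of -0.06 after centring on the median gene and of -0.67 from genes of like length. The *Setd1b* ratio was 1.54 (1.45 to 1.63), with a log2 difference of -0.47 from genes of like length. With GC content matched as well these differences were smaller, -0.34 for *Setd1a* with 183 of 500 genes below and -0.036 for *Setd1b* with 244 of 500 below. *Setd1b* made up 14.4% of their sum in ESCs and 18.7% to 21.1% in the other libraries.

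The value for *Setd1a* is less certain than the others. On chromosome 7, 127776670 to 127800122, 51.8% of its exonic bases are also annotated to *Gm49388* on the same strand, a gene that is not a row of the table. *Setd1b* is on chromosome 5, 123142193 to 123168629. Levels of different genes also rest on the lengths of the table, which are shorter than the union of annotated exons for *Kdm6a* (5265 against 8383 bases) and *Setd1b* (8858 against 12068 bases). Ratios of 1 gene between libraries do not depend on its length in this way.

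Within each library the genes fell in a wide order of levels. *Kmt2b* and *Setd1a* held the first 2 places in ESCs, DMSO and EED226, and *Kmt2c* the last in ESCs, EpiLCs and DMSO. *Kdm6b* moved most in rank, from place 2 in EpiLCs to place 8 with EED226. Of 28 neighbouring pairs in the 4 orders, 3 had a level ratio whose counting interval included 1. They were *Kdm6b* and *Kmt2b* in EpiLCs (1.01, 0.980 to 1.05), *Setd1b* and *Kmt2c* in EpiLCs (1.05, 0.996 to 1.11), and *Kmt2d* and *Setd1b* with DMSO (1.02, 0.983 to 1.07).

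In EpiLCs over ESCs, 4 of the 8 genes were at least 2-fold higher (*Kdm6b*, *Kmt2a*, *Kmt2c* and *Kmt2d*) and 0 were 2-fold lower. The background was 13535 genes that reached 1 TPM in either library, of which 29.2% were 2-fold higher and 11.6% lower. Among the 2053 of them within the length range of the 8 genes these shares were 47.6% and 5.21%. The median log2 ratio of the 8 genes was 0.91, beside 0.33 for all genes and 0.94 for genes in their length range. As many lay above their like-length median as below, 4 of 8 each, and the count of higher genes was near the share of their length class.

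**Figure D2:**
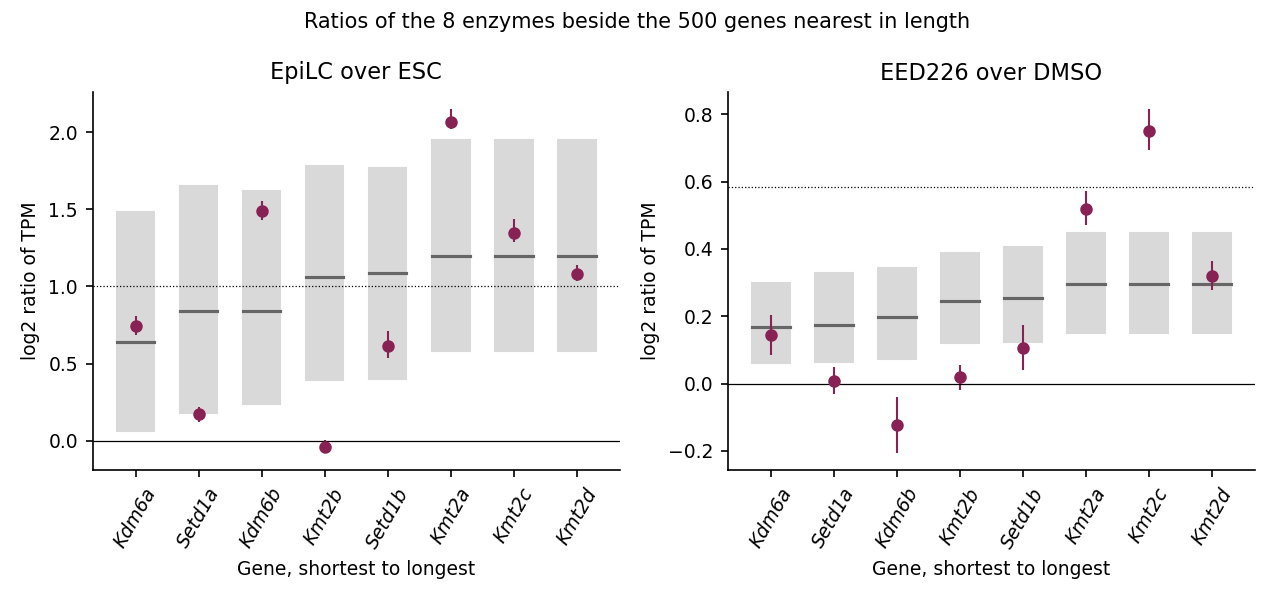
The log2 ratio of TPM for each of the 8 genes (points, with 95% counting intervals), ordered by length, in EpiLC over ESC and in EED226 over DMSO. Grey boxes span the lower to the upper quartile of the 500 genes nearest in length with their median as a line, and the dotted line marks 2-fold or 1.5-fold. *Kmt2a* lies above its box in both panels and *Kmt2c* in EED226 over DMSO. *Kmt2b* and *Setd1a* lie below their boxes in both, *Setd1a* narrowly in EpiLC over ESC, and *Kdm6b* and *Setd1b* do so in EED226 over DMSO.

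EED226 over DMSO addressed the same genes when PRC2 was inhibited in ESCs. *Kmt2c* showed the largest ratio of the 8, 1.69 (1.62 to 1.76). Its log2 ratio of 0.75 lay above 484 of its 500 genes of like length, whose median was 0.30. *Kmt2a* followed at 1.43 (1.39 to 1.49), with a log2 ratio of 0.52 above 419 of 500. *Kmt2d* was at 1.2497 (1.21 to 1.29), with a log2 ratio of 0.32 that was close to the like-length median of 0.30. Its place depended on the matching, since beside genes of like length and GC content the difference was 0.14, with 375 of 500 below. With that matching 490 of 500 lay below *Kmt2c* and 446 below *Kmt2a*.

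The other 5 genes lay at or below the median of genes of their length, and 4 of them, all but *Kdm6a*, lay below the lower quartile. *Kdm6b* had a ratio of 0.919 (0.867 to 0.973), the only one of the 8 below 1, and 14 of 500 genes of like length lay lower. *Kmt2b* at 1.01 (0.987 to 1.04) and *Setd1a* at 1.01 (0.978 to 1.04) had intervals that included 1. *Setd1b* was at 1.08 (1.03 to 1.13) and *Kdm6a* at 1.11 (1.06 to 1.15), and both turned to negative log2 differences, -0.15 and -0.023, from genes of like length. With GC content matched as well, 31 of 500 genes lay below *Kdm6b*, 103 below *Setd1a* and 108 below *Kmt2b*. For *Kdm6a* and *Setd1b* these numbers were 206 and 189, so that *Setd1b* was then not below the lower quartile.

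By the limit of 1.5-fold, 1 of the 8 genes was higher with EED226 and 0 were lower. Over the 12763 genes measured in this comparison 5.26% were 1.5-fold higher and 1.02% lower, and over the 1958 in the same length range 7.87% and 0.153%. The median log2 ratio of the 8 was 0.13, beside 0.085 for all genes and 0.22 in the length range. Within pairs, *Kmt2a* was 1.41-fold higher relative to *Kmt2b* (1.35 to 1.48), *Kmt2c* 1.35-fold relative to *Kmt2d* (1.28 to 1.42) and *Kdm6a* 1.20-fold relative to *Kdm6b* (1.12 to 1.29). The *Kmt2c* share of its pair was 40.8% with EED226 and 33.8% with DMSO, and it was 33.5% in ESCs and 37.9% in EpiLCs. The feeder marker sum was 55.7 TPM with DMSO and 57.7 TPM with EED226. Summed over 3 primitive endoderm markers the level was 1.57 TPM with DMSO against 4.85 TPM with EED226, mostly from *Gata4*, which had 85 and 316 reads (3.19-fold higher, 2.51 to 4.11). The part of such cells in these ratios was not tested. The naive sum was 1451 TPM with DMSO and 1516 TPM with EED226, with a median log2 ratio of 0.31. Of the 8 naive markers 1, *Tbx3* (1.51), was 1.5-fold higher and 0 were lower. The formative sum was 620 TPM with DMSO and 501 TPM with EED226, with 0 of 4 markers past 1.5-fold. The part of these shifts in the ratios was not tested either.

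**Figure D3:**
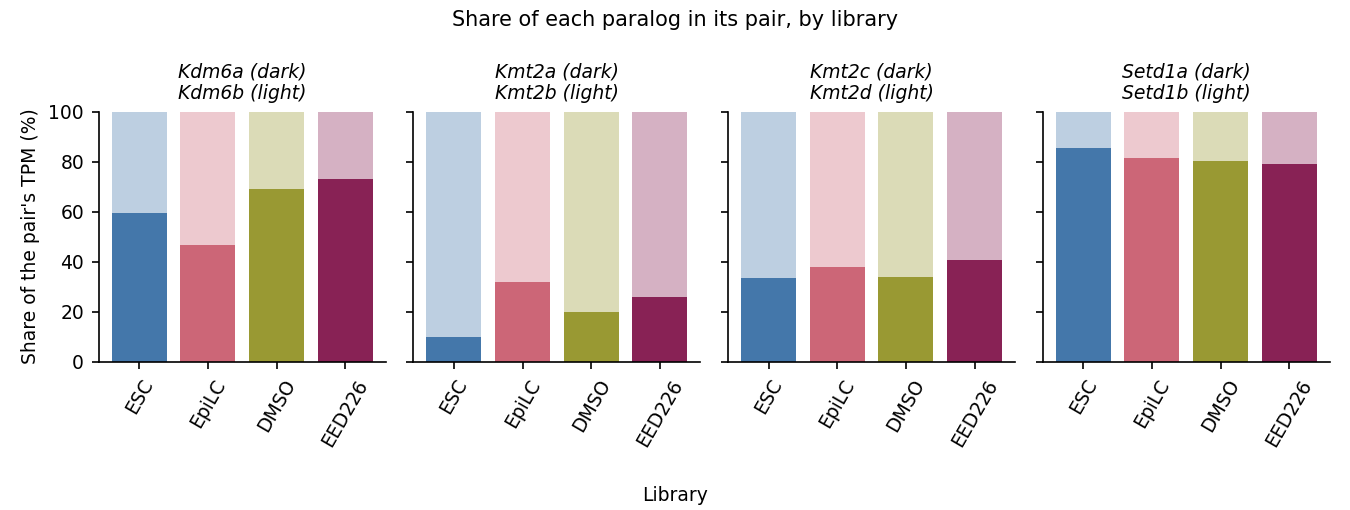
Share of each paralog in the summed TPM of its pair (%), by library, with the first gene of the pair dark and the second light. The *Kmt2a* share is 9.69% in ESCs and 31.9% in EpiLCs, and *Kdm6b* exceeds *Kdm6a* in EpiLCs alone among the 4 libraries, with 53.5%.

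The DMSO culture was not a second ESC replicate, and it lay between ESCs and EpiLCs for 4 of the 8 genes. Over ESCs, DMSO had ratios of 2.51 for *Kmt2a*, 2.11 for *Setd1b*, 1.93 for *Kmt2c*, 1.91 for *Kmt2d*, 1.43 for *Setd1a*, 1.33 for *Kdm6a*, 1.09 for *Kmt2b* and 0.864 for *Kdm6b*. *Kmt2a* and *Setd1b* were at least 2-fold higher, 2 of 8, beside 15.6% of all genes and 24.7% in the length range, and 0 were 2-fold lower, beside 9.02%. This comparison shares the ESC library with EpiLC over ESC, and by the methods the media differed. Its ratios also moved with length, from a median log2 ratio of -0.15 under 1000 bases to 0.69 at 8000 to 16000 bases. Of 500 genes of like length, 404 lay below *Kmt2a*, 374 below *Setd1b*, 335 below *Kmt2c* and 333 below *Kmt2d*. For *Setd1a*, *Kdm6a*, *Kmt2b* and *Kdm6b* these numbers were 253, 245, 114 and 72. With DMSO in place of ESCs as the reference, chosen after the data were seen, *Kdm6b* alone of the 8 was at least 2-fold higher in EpiLCs, beside 19.2% of all genes, and 0 were 2-fold lower, beside 8.76%. *Kmt2a* was then 1.69-fold higher and *Kmt2d* 1.11-fold, and *Kmt2b*, *Setd1a* and *Setd1b* were at 0.889, 0.790 and 0.730. Relative to its partner, *Kmt2a* was then 1.90-fold higher (1.81 to 1.99) and *Kdm6a* 0.389-fold as high (0.365 to 0.415), whereas *Setd1a* relative to *Setd1b* turned to 1.08-fold (1.01 to 1.15). The pluripotency markers moved between these ESC cultures as well. The naive sum was 2625 TPM in ESCs, 1451 TPM with DMSO and 315 TPM in EpiLCs. That of the formative genes was 194, 620 and 655 TPM, of which *Dnmt3b* made up most, with 134, 472 and 446 TPM. The formative genes disagreed between DMSO and EpiLCs. Their EpiLC over DMSO ratios were 7.62 for *Fgf5*, 1.40 for *Pou3f1*, 0.944 for *Dnmt3b* and 0.739 for *Otx2*. In DMSO over ESC, 4 of 8 naive markers were at least 2-fold lower and 3 of 4 formative ones at least 2-fold higher, and the part of this in the ratios of the 8 genes was not tested. Which of the cell state, the medium and the length trend goes with the low ESC levels cannot be told apart.

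The summed TPM of the 6 methyltransferase genes was 158 in ESCs, 214 in EpiLCs, 227 with DMSO and 251 with EED226. It was thus 1.35-fold higher in EpiLCs than in ESCs, and against DMSO the direction turned, with a ratio of 0.941. *Kmt2c* and *Kmt2d* together made up 10.8% of it in ESCs, 18.2% in EpiLCs, 14.5% with DMSO and 18.3% with EED226. *Kmt2a* and *Kmt2b* together contributed 45.0%, 43.0%, 38.6% and 38.3% in the same order of libraries.

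Subunits that these enzymes share had lower levels in EpiLCs than in ESCs, and less so against the DMSO library. The genes of the core, *Wdr5*, *Rbbp5*, *Ash2l* and *Dpy30*, had ratios below 1 in EpiLCs over ESCs in 4 of 4 cases, with a median log2 ratio of -0.90 beside 0.33 for all genes. *Dpy30*, which binds ASH2L, was at 435 TPM in ESCs against 168 TPM in EpiLCs (0.387, 0.371 to 0.403), and was the one past 2-fold. Of all genes, 11.6% were 2-fold lower. *Wdr5*, the WD40 scaffold, was at 353 TPM in ESCs against 177 TPM in EpiLCs, just inside the 2-fold limit with a ratio of 0.5001 (0.487 to 0.513). *Ash2l* at 0.881 and *Rbbp5* at 0.576 were nearer to 1. These genes are short, from 1108 to 3632 bases. In the same comparison, genes of 1000 to 2000 bases had a median log2 ratio of 0.031 and those of 2000 to 4000 bases one of 0.29. With DMSO as the reference the median log2 ratio of the core was -0.45, *Dpy30* was at 0.437 and *Ash2l* turned to 1.19 (1.17 to 1.22). With EED226 the core ratios ran from 0.923 for *Wdr5* to 1.06 for *Rbbp5*.

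Subunits grouped here by complex were mixed. Of all genes, 29.2% were 2-fold higher and 11.6% lower in EpiLCs over ESCs. For the SET1 complexes, *Cxxc1* (CFP1, a CpG-binding subunit) and *Wdr82* had ratios of 0.732 and 0.744 in EpiLCs over ESCs, and the cofactor *Hcfc1* one of 1.49, with 0 of 3 past 2-fold. For the KMT2A and KMT2B complexes, *Men1*, which encodes menin, was at 66.2 TPM in ESCs against 36.7 TPM in EpiLCs (0.554). *Psip1*, the chromatin tether LEDGF, was at 101 and 242 TPM (2.40), and *Hcfc2*, with few reads, had a ratio of 1.74, so that 1 of 3 was past 2-fold. For the KMT2C and KMT2D complexes, *Paxip1*, *Pagr1a* and *Ncoa6* had ratios of 1.18, 0.849 and 1.48, with 0 of 3 past 2-fold. *Kmt2a* and *Men1* thus lay on opposite sides of 1. With EED226 the highest ratio in these lists was 1.35 for *Ncoa6*, and 0 of the 9 subunits was 1.5-fold higher or lower, beside 5.26% and 1.02% of all genes.

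Enzymes that remove H3K4 methylation were 2 of 6 past 2-fold higher in EpiLCs and 0 lower, beside 29.2% and 11.6% of all genes. Their median log2 ratio was -0.079. *Kdm5a* was at 11.3 TPM in ESCs, 31.5 TPM in EpiLCs, 18.7 TPM with DMSO and 21.8 TPM with EED226, with an EpiLC over ESC ratio of 2.79. *Kdm5b*, the most abundant of them in ESCs, was at 264 and 147 TPM (0.557), and *Kdm1b* had a ratio of 0.793. *Kdm5d*, on the Y chromosome, had 0.552 TPM in ESCs, 15.0 TPM in EpiLCs, 0.166 TPM with DMSO and 0.205 TPM with EED226. Only the EpiLC library held more than 100 reads of it, 1249 beside 71, 16 and 23. *Uty*, the Y-linked paralog of *Kdm6a* with little demethylase activity, was detected in all, at 14.6 TPM in ESCs, 33.5 TPM in EpiLCs, 19.5 TPM with DMSO and 18.8 TPM with EED226. The sources used here do not say how reads shared by X-linked and Y-linked paralogs were counted. The summed TPM of the 6 H3K4 demethylase genes was 0.784-fold in EpiLCs over ESCs beside 1.35-fold for the 6 methyltransferase genes. Against DMSO these ratios were 0.837 and 0.941, so that both sums were then lower in EpiLCs. The sums are not matched for length. *Kdm5b* (6300 bases, 264 TPM) and *Kdm1a* (3015 bases, 250 TPM) made up most of the demethylase sum of 590 TPM in ESCs. The methyltransferase genes have 5931 to 19827 bases.

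Of 7 relatives with a SET or JmjC domain, 3 passed 2-fold upwards and 1 downwards in EpiLCs, beside 29.2% and 11.6% of all genes. *Setd7*, which encodes a lysine methyltransferase that acts on H3K4 in vitro, was at 2.35 TPM in ESCs, 44.3 TPM in EpiLCs, 14.7 TPM with DMSO and 16.9 TPM with EED226, 18.9-fold higher in EpiLCs than in ESCs. *Kmt2e*, the MLL5 gene, had a ratio of 2.82 and *Smyd3* one of 1.46. *Smyd1* was at 23.6 TPM in ESCs and 1.91, 1.69 and 1.81 TPM in EpiLCs, DMSO and EED226. Its level thus set the ESC library apart from the other 3, as the low level of *Kmt2a* did in the opposite direction.

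The PRC2 core, whose methylation KDM6A and KDM6B remove, had 1 of 6 genes past 2-fold upwards and 1 downwards in EpiLCs. Among all genes these shares were 29.2% and 11.6%. *Ezh1* had a ratio of 2.58 and *Eed* one of 0.315, with *Ezh2* at 1.01, *Suz12* at 1.42, *Rbbp7* at 1.44 and *Rbbp4* at 0.708. With EED226 these ran from 0.852 for *Eed* and 0.863 for *Rbbp4* to 1.16 for *Suz12*, with *Rbbp7* at 0.934, *Ezh1* at 1.04 and *Ezh2* at 1.13. The summed TPM of the H3K27 methyltransferase genes *Ezh1* and *Ezh2* was 166 in ESCs and 186 in EpiLCs, a ratio of 1.12, beside 2.14 for the sum of *Kdm6a* and *Kdm6b*. These sums are not matched for length. The like-length medians of *Kdm6a* and *Kdm6b* were 0.64 and 0.84 on the log2 scale. *Ezh2* has 2667 bases, and genes of 2000 to 4000 bases had a median of 0.29.

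Other long chromatin regulators give a measure of the background. Of 13 such genes, 6 passed 2-fold upwards in EpiLCs and 0 downwards, with a median log2 ratio of 0.68. Among all genes within the length range of the 8, 47.6% were 2-fold higher and 5.21% lower. *Chd7*, a nucleosome remodeler, was at 4.18 TPM in ESCs against 30.5 TPM in EpiLCs (7.30-fold), and its relative *Chd9* had a ratio of 5.38. *Chd8* and *Ep400* were lowest, at 0.874 and 1.24. Of the 13, 6 lay above the median of their genes of like length. These counts also rest on the ESC library, since 6 of the 13 were 2-fold higher in DMSO over ESC, with a median of 0.98, and 0 were so in EpiLCs over DMSO, with a median of 0.36 and a *Chd7* ratio of 1.37. Of all genes, 15.6% and 19.2% were 2-fold higher in these comparisons. With EED226, 0 of the 13 was 1.5-fold higher and *Crebbp*, a histone acetyltransferase gene, was nearest with 1.48, below *Kmt2c* with 1.69. Over all 8 lists, 13 genes were 2-fold higher and 3 lower of 45 in EpiLCs over ESCs, beside the 29.2% and 11.6% of all genes given above. With DMSO as the reference 4 were higher and 2 lower, beside 19.2% and 8.76%. With EED226, 0 were 1.5-fold higher or lower, beside 5.26% and 1.02%.

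**Figure D4:**
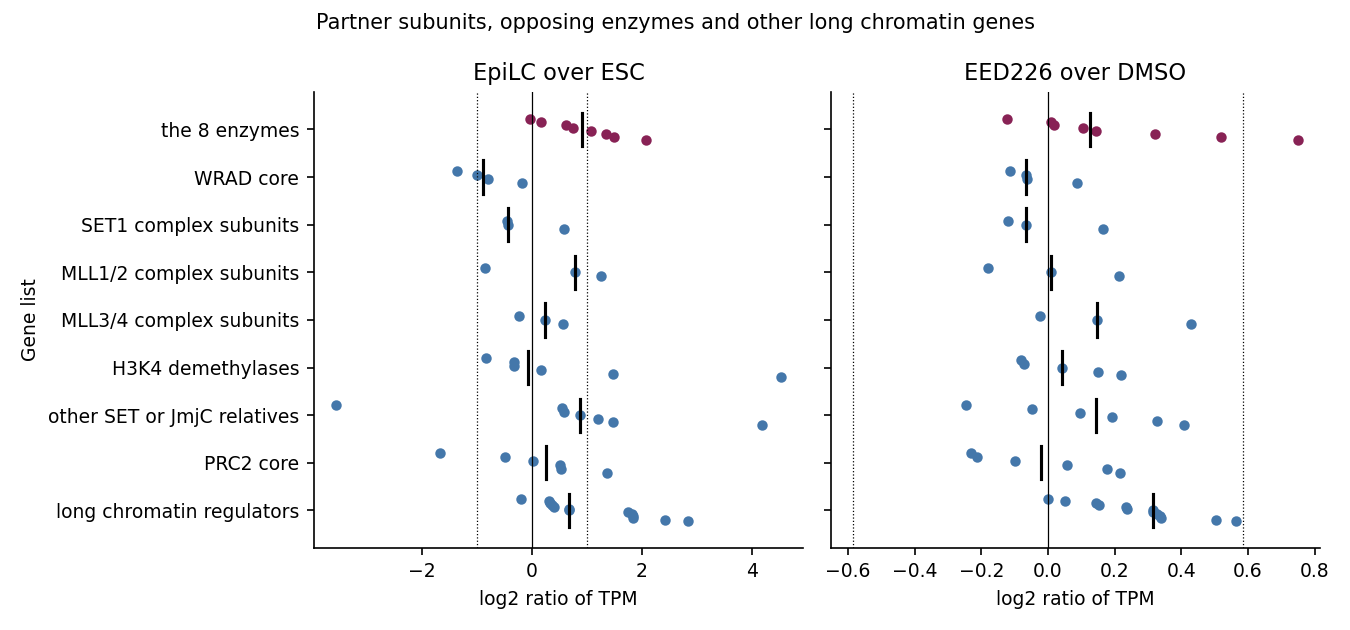
The log2 ratio of TPM for the 8 enzymes and for 8 lists of partner subunits, related or opposing enzymes and long chromatin regulators, 1 point per gene with at least 1 TPM in either library of the comparison and a bar at each list's median. Dotted lines mark 2-fold in EpiLC over ESC and 1.5-fold in EED226 over DMSO. The WRAD core (*Wdr5*, *Rbbp5*, *Ash2l*, *Dpy30*) lies left of 0 in EpiLC over ESC with a median of -0.90, the 8 enzymes have a median of 0.91, and with EED226 *Kmt2c* is the one point beyond a dotted line.

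Genes with a pattern like that of *Kmt2a* over the 4 libraries were looked for among 8621 genes with at least 5 TPM in each. The measure was the largest difference in any library between the log2 levels of both genes, each centred on its own mean. The closest were *Cbl*, a ubiquitin ligase gene (5.23, 19.6, 12.8 and 17.7 TPM in ESCs, EpiLCs, DMSO and EED226), with a largest difference of 0.10, and *Entpd6* and *Lrrc8d*, both with 0.12. With 4 libraries many genes can share an order, and the likeness is a description.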

How the data were processed

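Stranded mRNA libraries of 4 cultures of the R1 line, 1 per condition, were sequenced with 100 bp single reads. Tools named by the submitters' notes on processing are featureCounts 1.6.2, STAR 2.6.0a, Bowtie2 2.2.4 and bcl2fastq 2.20, with the build mm10. Neither the annotation nor the strand setting of the counting is given there, so a gene and its antisense partner may share reads. The authors deposited a count of reads per gene and a TPM value per library. In every library the TPM values add up to 1000000 and equal the deposited count per base of listed gene length, scaled. Reads per base were also deposited and were not used as a measurement. Samples were grouped by their labels, and 1 symbol with 2 entries was dropped.

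Levels are TPM as deposited. Log2 ratios were taken after adding 0.1 TPM, which slightly understates the change of low genes, and printed ratios are without it. Intervals at 95% are exact, from the read count of a level or the split of reads between libraries, and for ratios within pairs from the variance of the log counts. The design had assumed TPM alone. Counts were also held, but without replicates no count model could estimate the spread, and no test was made. Ratios were compared with those of the 500 genes nearest in length, the 8 genes left out.

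The 8 genes and the lists were chosen with earlier results of these data known. The text names all 8, up to 2 genes of each list with the highest and 2 with the lowest ratio in a comparison, the PRC2 core in full, the 3 genes most like the one of widest range, and genes that overlap exons, besides marker genes chosen after their values were seen. Positions and overlaps come from GENCODE annotation of GRCm38, the build mm10 names. Python 3.11.15 with scipy 1.17.1, numpy 2.4.6, matplotlib 3.10.9 and pandas 2.3.3 was used, and calculations were tested on simulated data. Alternatives covered pseudocount, filter, fold limit, scaling, length, GC content and the reference library.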

Additional observations from a re-analysis of the deposited data

How the results depend on the processing

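No paired analysis was possible because each condition had 1 library, and for the same reason no library could be left out. Alternatives that used GC content or DMSO as the reference library were chosen after the data were seen. Over genes that reached 1 TPM everywhere, the median log2 ratio was 0.23 in EpiLC over ESC and 0.076 in EED226 over DMSO. In EpiLC over ESC, the median log2 ratio of the 8 genes (0.91) was 0.76 by read counts scaled to the library total and not divided by length, 0.68 centred on the median gene, 0.79 scaled to the upper quartile, -0.0091 centred on genes of like length, 0.12 with GC content as well and 0.24 with DMSO as reference. The number 2-fold higher (4) was 0 after centring on like length, 2 with GC content as well, 1 with DMSO as reference, and 7 where it was enough that the counting interval excluded 1, which 56.6% of all genes passed upwards. After centring on like length 1 gene, *Kmt2b*, was 2-fold lower, and with GC content it was not. The log2 ratio of *Kmt2d* was reversed to -0.12 by centring on like length, and was 0.25 with GC content. Differences within pairs became -0.54 for *Kdm6a* and *Kdm6b* (-0.75 as reported), 1.97 for *Kmt2a* and *Kmt2b* (2.11) and -0.20 for *Setd1a* and *Setd1b* (-0.44), and with DMSO as reference -1.36, 0.92 and 0.11, the last reversed. The summed H3K4 methyltransferases (0.43) were at 0.20 centred on the median gene, 0.52 by read counts and, reversed, -0.088 with DMSO as reference, and the demethylases (1.10) at 0.86, 0.98 and 0.91. Over the 8 lists, 4 genes were 2-fold higher after centring on like length and 4 with DMSO as reference, and 7 were 2-fold lower after centring on the median gene and 11 on like length. In EED226 over DMSO, the median of the 8 genes (0.13) was 0.049 centred on the median gene, -0.085 on like length and -0.045 with GC content. The number 1.5-fold higher (1) was 0 after centring on like length, with or without GC content, 2 at a lower fold limit (which 18.1% of all genes passed) and 5 by the interval alone, by which 1 was lower (40.3% and 12.9% of all genes). The *Setd1a* and *Setd1b* difference (-0.098) became -0.018 on like length. The summed H3K4 methyltransferases (0.14) were at 0.067 on the median gene and 0.18 by read counts, and the demethylases (0.067) at -0.0088 and 0.0049. In the other 53 summary values examined the change stayed within the counting interval or within 1.5 times. What causes the dependence on length and on the reference library was not tested. Depth did not limit these genes, since each had at least 2099 reads per library, whereas the missing replicates limit each comparison.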
